A study of Homo sapiens with 6 samples.

Results

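Imprinted genes are described here in a human breast cancer line that lacks hormone receptors, MDA-MB-231, with and without hairpin RNA against RNF20. The set held 10 of the 62703 genes in the count tables: NNAT, its host gene BLCAP, PEG10, SGCE, PEG3, MEST, H19, IGF2, CDKN1C and PHLDA2. NNAT was chosen by its fold change, the largest rise among well expressed genes in an earlier analysis of the same libraries, so its difference is given as a description with no test. The other members were named as its host gene and as textbook imprinted genes. They were chosen with results of these libraries known, and their p-values are therefore no independent support. Enough counts for a test were present for 8 of the 10 members, against 15797 of all genes. H19 and PEG3 were not tested.

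Bulk RNA sequencing covered 3 libraries of cells with a control hairpin (shControl) and 3 of cells with hairpin RNA against RNF20 (shRNF20), all of the same line and with no other treatment in the labels. RNF20 is the E3 ubiquitin ligase that, with RNF40, attaches ubiquitin to histone H2B on transcribed genes. The number of hairpins is not in the labels, nor whether the cells were pools or clones or whether replicates were separate cultures. The p-values therefore reflect the spread between these libraries alone, which can be technical. The knockdown was measured as a fall of RNF20 to 12.5 ± 1.52 CPM (counts per 1000000 counts assigned to genes, scaled by TMM; SD, n = 3), with 58.1 ± 0.34 CPM in the controls (edgeR adjusted p = 5.23e-06).

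Genomic imprinting marks one parental copy of a gene by DNA methylation in the germ line, and the mark is kept in somatic cells so that mainly the other copy is transcribed. Imprinted genes lie in clusters that share control regions, many act on fetal growth and the placenta, and loss of their mono-allelic expression is common in tumours. Counts per gene do not say which parental copy an RNA came from, and in bulk samples fewer cells of a type and less RNA per cell cannot be told apart.

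Start-site windows from the RefSeq table (GRCh38.p14, 250 bases before to 50 after each start) matched BLCAP, MEST and H19 by symbol. NNAT, PEG10, SGCE, PEG3, IGF2, CDKN1C and PHLDA2 had no entry. The stretches upstream of starts of BLCAP and MEST, the matched members with tested differences, are printed because methylation at CG is the chemical mark of imprinting. They are written 5′ to 3′ on the minus strand for BLCAP and the plus strand for MEST, leave out annotated exons, and carry each CG (the same letters on both strands) in capitals.
BLCAP upstream of its outer start, chr20:37527932-37528126: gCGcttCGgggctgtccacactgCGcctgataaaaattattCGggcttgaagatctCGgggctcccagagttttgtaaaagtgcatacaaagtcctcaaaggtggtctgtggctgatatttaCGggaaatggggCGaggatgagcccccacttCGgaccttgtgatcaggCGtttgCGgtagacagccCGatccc
BLCAP upstream of an inner start, chr20:37524552-37524703: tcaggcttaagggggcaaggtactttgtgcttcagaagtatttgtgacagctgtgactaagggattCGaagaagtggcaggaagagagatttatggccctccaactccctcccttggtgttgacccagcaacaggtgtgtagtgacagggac
MEST, chr7:130491808-130492057: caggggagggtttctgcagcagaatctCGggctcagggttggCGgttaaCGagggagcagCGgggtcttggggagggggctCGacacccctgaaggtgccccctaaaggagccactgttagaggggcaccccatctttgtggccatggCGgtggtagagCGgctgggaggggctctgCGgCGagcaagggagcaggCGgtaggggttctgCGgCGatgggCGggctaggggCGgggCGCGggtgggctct
The whole 300-base window of the outer BLCAP start held 22 CG, a number reached by 37.7% of the 35116 windows in the table. The inner BLCAP start shown, which lies between NNAT and the outer start, had 6 CG, a number reached by 66.3% of windows. The remaining BLCAP window in the table, at another inner start (37527732), had 30. The MEST window shown held 22, and the 5 windows of MEST ranged from 13 to 25. The median over all windows was 14. Methylation was not measured in these libraries.

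Of the 8 members tested, NNAT, BLCAP and SGCE were higher in shRNF20, PEG10 and MEST were lower, and IGF2, CDKN1C and PHLDA2 did not pass the threshold of an adjusted p of 0.05. Across the transcriptome 58.4% of tested genes passed, with 28.7% of tested genes higher and 29.8% lower. Without NNAT, 2 of the 7 other tested members were higher and 2 lower (57.1% passed), a share near the background. Their median log2 fold change was 0.17, against -0.01 over all tested genes. The groups did not overlap in 4 of these 7, and in 66.3% of all tested genes. Differences were of both signs, with NNAT and PEG10 at the head of each direction.

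**Figure D1:**
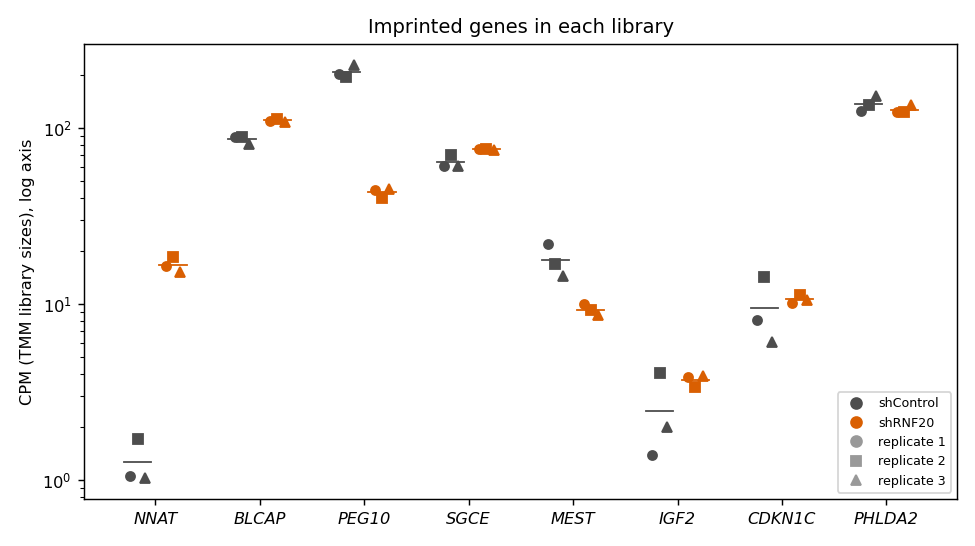
Level of each tested member in each library, in CPM on a log axis. Grey symbols are shControl, orange symbols are shRNF20, the symbol shape gives the replicate number and horizontal lines are group means. NNAT lies between 1.02 and 1.70 CPM in shControl and between 15.1 and 18.4 CPM in shRNF20, PEG10 between 195 and 228 against 40.0 and 44.8 CPM, while IGF2, CDKN1C and PHLDA2 overlap between groups.

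NNAT (ENSG00000053438.11, GRCh38 chromosome 20, 37521206 to 37523693, plus strand) encodes neuronatin, a small membrane proteolipid of the endoplasmic reticulum that is transcribed from the paternal copy and is known from developing brain and endocrine cells. In the shControl libraries it had 1.05, 1.70 and 1.02 CPM, from 31, 43 and 24 reads. In the shRNF20 libraries it had 16.4, 18.4 and 15.1 CPM, from 425, 406 and 430 reads. Every shRNF20 library was far above every shControl library, and NNAT was at a low but countable level in the controls. The mean went from 1.26 ± 0.38 to 16.6 ± 1.68 CPM, 13.2-fold higher (log2 fold change 3.72, SE 0.22). This is the contrast by which NNAT was chosen.

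BLCAP (ENSG00000166619.15, chromosome 20, 37492472 to 37527931, minus strand) encodes a small conserved protein first described as lost in bladder cancer, and its introns hold NNAT on the opposite strand. Its level was 88.2, 88.1 and 81.0 CPM in shControl and 110, 113 and 108 CPM in shRNF20. The groups did not overlap, as held for 66.3% of all tested genes. The rise was small beside that of NNAT, from 85.8 ± 4.14 to 110 ± 2.59 CPM. Its log2 fold change was 0.36 with an SE of 0.07 (edgeR adjusted p = 0.00221). The adjusted p of BLCAP by edgeR was 0.112 once the 3 shRNF20 libraries were summed to 1 sample.

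Per kb of annotated exon, NNAT stood at 0.788, 1.27 and 0.767 CPM per kb in shControl, which was 7.03%, 11.4% and 7.45% of the level of BLCAP in the same library. In shRNF20 it stood at 12.3, 13.8 and 11.3 CPM per kb, or 87.9%, 96.6% and 83.0% of BLCAP. The nested gene thus went from well below its host's level per length to just under it, and the ratio did not overlap between groups. NNAT was chosen by its rise and BLCAP changed little, so this separation follows from the choice and is a description only.

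Another gene inside BLCAP moved like NNAT. ENSG00000276603 (chromosome 20, 37526642 to 37527060, minus strand, 419 bases) is annotated as sense intronic, which means a non-coding transcript inside an intron of its host on the same strand, and it was singled out after its values were seen. It had 22, 17 and 10 reads in shControl (0.74, 0.67 and 0.43 CPM) and 161, 156 and 164 reads in shRNF20 (6.20, 7.08 and 5.76 CPM). All 3 shRNF20 libraries were above all shControl libraries (log2 fold change 3.34, SE 0.25, edgeR adjusted p = 2.41e-05). Its level per kb was 14.8, 16.9 and 13.8 in shRNF20 and 1.78, 1.60 and 1.02 in shControl. In each library that was above the level of NNAT per kb.

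**Figure D2:**
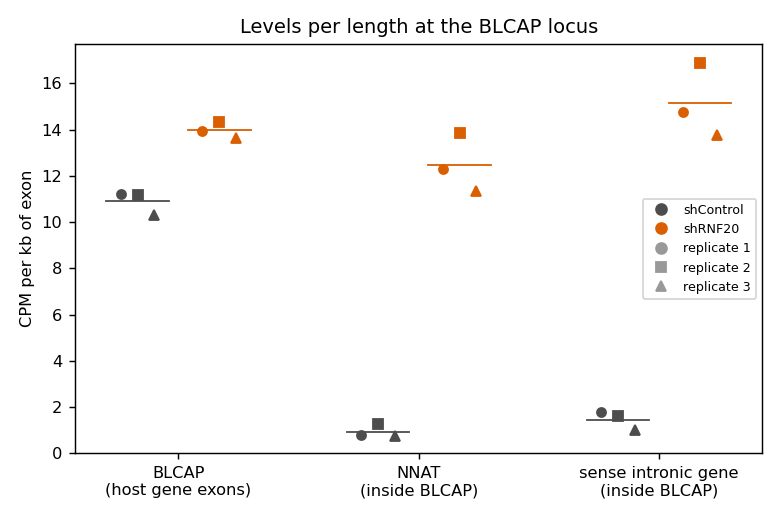
CPM per kb of annotated exon for BLCAP, NNAT and the sense intronic gene ENSG00000276603 in each library, with group means as lines. The genes inside BLCAP are below 2 in all shControl libraries and between 11.3 and 16.9 in shRNF20, where the exons of BLCAP stand at 13.7 to 14.3.

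NNAT and ENSG00000276603 lie in 1 and the same intron in 5 of the 15 annotated BLCAP transcripts, and 6 transcripts have an intron over NNAT. In BLCAP-201 that intron runs from 37519351 to 37527792 and is 8442 bases long. The libraries keep no strand, so a read in an exon of NNAT could come from NNAT or from unspliced BLCAP RNA, and these cannot be told apart in counts per gene. Spliced reads, which would separate them, were not analysed here. Reads outside all annotated exons made up 2.58%, 2.51% and 2.39% of recorded reads in shControl and 5.46%, 5.49% and 5.05% in shRNF20. Their part in the difference of NNAT was not tested.

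Over all sense intronic genes, 56 of 120 tested were higher in shRNF20 and 7 lower, with a median log2 fold change of 0.71. Protein-coding genes nested in another protein-coding gene, the class to which NNAT belongs, were higher in 156 of 449 (34.7%) and lower in 92 (20.5%), with a median of 0.15. For comparison 28.7% of all tested genes were higher and 29.8% lower.

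The counting itself also bears on NNAT. Of its 1332 exon bases 85 (6.4%) are also exon of BLCAP, and reads there were recorded as ambiguous. Summing the 2 strand columns keeps these reads but counts each of them for both genes, so their origin stays unknown. NNAT then had 61, 80 and 56 reads in shControl and 571, 524 and 574 in shRNF20. The sum added 101% to its shControl reads and 32.4% to its shRNF20 reads, and the log2 fold change became 3.14. The groups remained apart in that count, and 3.14 was the lowest value of NNAT over the 15 alternatives, whose highest was 3.97 without shControl replicate 2.

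Around NNAT the changes had both signs. Within 1 Mb 30 genes were tested, and without NNAT and BLCAP 11 of 28 were higher and 11 lower, with a median log2 fold change of 0.11. That is 78.6% passing, against 58.4% of all tested genes, and 35.7% differed at least 2-fold, against 23.4%. The difference between these shares was not tested. CTNNBL1, a spliceosome-associated protein and the nearest tested gene on the distal side beyond BLCAP, was up by 0.20 on the log2 scale, a call lost (0.16 to 0.22) when any library but shControl replicate 1 was left out. SRC, the tyrosine kinase on the other side, was down at -0.94. Farther out TGM2 (-2.09, a transglutaminase) and LBP (-2.84, the lipopolysaccharide-binding protein) fell. The small RNA host gene SNHG17 (1.88) rose, as did the small nucleolar RNA SNORA71B (3.75), which lies within its span on the same strand. SNORA71B went from 10, 2 and 0 reads in shControl to 61, 45 and 52 in shRNF20. LBP had 2.10, 7.46 and 0.64 CPM in shControl. Its log2 fold change was -1.57 without shControl replicate 2, and it did not pass without shRNF20 replicate 3 (-2.77). That of SNORA71B was 5.48 without shControl replicate 1.

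**Figure D3:**
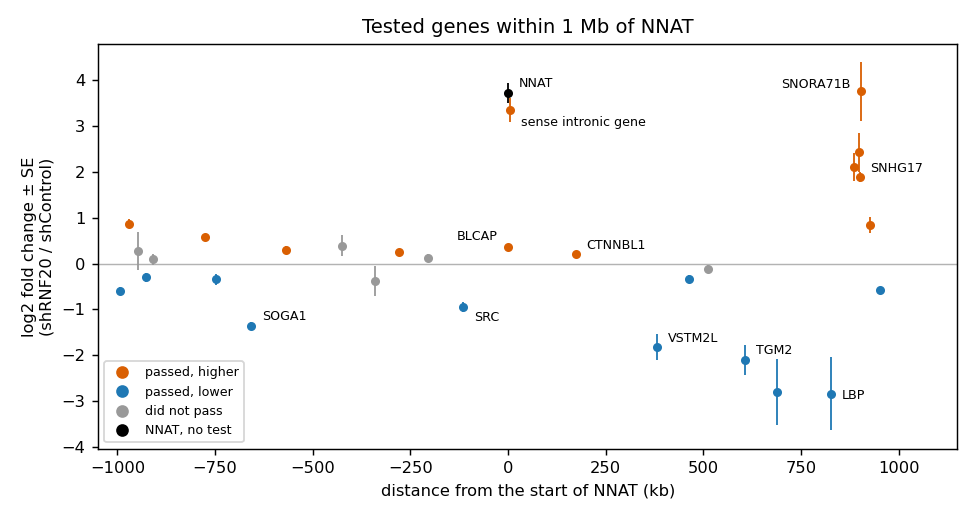
Log2 fold change with SE (shRNF20 over shControl) of the 30 tested genes within 1 Mb of NNAT against their distance from its start in kb, with 0 for genes that overlap the start. Orange genes passed as higher, blue as lower, grey did not pass, and NNAT is in black without a test. Higher and lower genes are interspersed, from SNORA71B at 3.75 to LBP at -2.84.

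Tested genes were ranked by Pearson's r of log2-CPM with NNAT over the 6 libraries. Those with a clone name, a LINC symbol or only an Ensembl identifier were left out of the ranking. The genes most like NNAT were then ZNF211 (r = 0.9998), VCPKMT (0.9996), SNORD9 (0.9995), TAF1C (0.9993) and DEF8 (0.9993). SNORD9 was almost without reads in shControl (mean 0.013 CPM, against 0.66 CPM in shRNF20). ZNF211, a zinc finger protein, went from 15.8 to 37.6 CPM, and TAF1C, a subunit of the RNA polymerase I factor SL1, from 30.8 to 86.7 CPM. An r of at least 0.95 was shared by 1910 of 15796 genes and one of at least 0.99 by 295, so a close match with NNAT over these libraries was common. The 6 points fall into the 2 groups, and r is given only to rank genes.

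The retrotransposon-derived member PEG10 and its neighbour SGCE share a control region on chromosome 7 and are both transcribed from the paternal copy. PEG10 (ENSG00000242265.6, 94656325 to 94669695, plus strand) encodes a domesticated retrotransposon Gag-Pol protein needed for the placenta and raised in several cancers. It had 201, 195 and 228 CPM in shControl and 44.1, 40.0 and 44.8 CPM in shRNF20. No shRNF20 library came near the lowest control. The mean was 208 ± 17.7 CPM in shControl and 43.0 ± 2.56 CPM in shRNF20, which is 4.84-fold lower. The log2 fold change was -2.27 with an SE of 0.09 (edgeR adjusted p = 3.59e-06), and it lay between -2.34 and -2.21 over the 15 alternatives.

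SGCE (ENSG00000127990.19, 94524204 to 94656572, minus strand) encodes epsilon-sarcoglycan, a membrane protein of the dystrophin-associated complex, and its promoter abuts that of PEG10, the genes overlapping by 219 exon bases. The shControl libraries had 60.4, 69.9 and 60.8 CPM of SGCE, and the shRNF20 libraries 76.0, 76.2 and 74.5 CPM. The lowest shRNF20 library was above the highest control by a narrow margin. The means were 63.7 ± 5.34 and 75.6 ± 0.90 CPM. The rise of 0.25 on the log2 scale (SE 0.08, edgeR adjusted p = 0.0266) did not pass in 8 of the 15 alternatives. These include leaving out any library but shControl replicate 2 (0.19 to 0.24), and it was 0.10 with the strand columns summed (adjusted p = 0.272). That sum counts reads shared with PEG10 for both genes and added 15.7% to SGCE in shControl and 2.5% in shRNF20. The part of these reads in the lower value was not tested.

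The divergent neighbours thus differed in opposite directions. The level of PEG10 per kb was 10.4, 8.72 and 11.7 times that of SGCE in shControl and 1.81, 1.64 and 1.88 times in shRNF20. Farther along this cluster TFPI2, a placental protease inhibitor, fell from 72.8 to 13.9 CPM (-2.39 on the log2 scale) and PPP1R9A, a neuronal actin and phosphatase binding protein, fell by 0.62 on the log2 scale. PON2, a lactonase, rose by 0.64, and the calcitonin receptor CALCR rose from 0.48 to 1.71 CPM (1.82). In all 3 of the 8 tested genes of the cluster were higher and 3 lower, or 75.0% passing, against 58.4% of all tested genes.

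MEST (ENSG00000106484.16, chromosome 7, 130486171 to 130506465, plus strand) encodes a hydrolase-like protein of mesoderm and growing fat, expressed from the paternal copy. Its levels were 21.8, 16.9 and 14.5 CPM in shControl and 9.96, 9.17 and 8.64 CPM in shRNF20. The groups did not overlap (as in 66.3% of all tested genes), although the controls were spread more widely. The mean was 17.7 ± 3.76 CPM in shControl and 9.26 ± 0.66 CPM in shRNF20, a log2 fold change of -0.94 (SE 0.17, edgeR adjusted p = 0.00145). The adjusted p of MEST was 0.0691 when the shRNF20 libraries were treated as 1 summed sample. Other genes cover 27.4% of its exon bases. The strand columns credit reads shared with genes on the other strand to both genes. They raised the counts of MEST by 77.7% in shControl and 71.7% in shRNF20 and left its log2 fold change at -0.96.

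The tested neighbours of MEST fell as well. COPG2, a coatomer subunit that overlaps the end of MEST on the opposite strand, went from 36.9 ± 3.76 to 19.3 ± 1.20 CPM, a log2 fold change of -0.93 (edgeR adjusted p = 0.000165). The carboxypeptidase CPA4 went from 44.5 to 8.10 CPM (-2.46). So all 3 tested genes of this cluster were lower, in contrast with the mixed directions around PEG10 and NNAT. Of all tested genes 29.8% were lower. The difference between clusters was not tested.

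The members on chromosome 11 were IGF2, H19, CDKN1C and PHLDA2, from the cluster in which the growth factor and its brake are imprinted in opposite ways. IGF2 (ENSG00000167244.22, 2129112 to 2149603, minus strand), the fetal growth factor, had 1.39, 4.03 and 2.0 CPM in shControl and 3.85, 3.36 and 3.90 CPM in shRNF20. The ranges overlapped because shControl replicate 2 was as high as the shRNF20 libraries (log2 fold change 0.59, SE 0.36, edgeR adjusted p = 0.189). Without that library IGF2 was 1.11 higher on the log2 scale with an adjusted p of 0.00398. Other annotated genes cover 75.0% of its exon bases, so reads from this stretch may be missing from its counts. The strand columns, which recover only reads shared with genes on the other strand, added 3.16% and 0.70%.

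H19, the maternally expressed non-coding RNA next to IGF2, had 1, 2 and 1 reads in shControl and 0, 1 and 1 in shRNF20. With so few reads no difference in H19 was detectable at this depth. A count of 0 allows up to 3 reads, or 0.102 to 0.136 CPM in these libraries. PEG3 on chromosome 19, a zinc finger protein expressed from the paternal copy and often silenced in cancer, had 0 reads in all 6 libraries, under the same limit. The other genes listed here for its cluster (ZIM2, USP29, MIMT1, ZIM3 and DUXA) also had 0 reads throughout. ZNF264, which starts beyond DUXA at 57191500, was listed with the other imprinted genes and had 721 to 1294 reads per library. It is named here after its values were seen. It passed narrowly as higher (log2 fold change 0.29, edgeR adjusted p = 0.0495) and did not pass in 8 of the 15 alternatives.

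CDKN1C (ENSG00000129757.15, 2883213 to 2885773, minus strand) encodes the cyclin-dependent kinase inhibitor p57. The shControl libraries had 8.09, 14.3 and 6.09 CPM of it, and the shRNF20 libraries 10.2, 11.2 and 10.6 CPM. The shRNF20 libraries lay within the range of the controls (log2 fold change 0.17, SE 0.27, edgeR adjusted p = 0.622). Leaving out shControl replicate 2 gave 0.56 (adjusted p = 0.0123), and leaving out shControl replicate 3 turned the sign to -0.07 (adjusted p = 0.808), so the control libraries decide this value.

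PHLDA2 (ENSG00000181649.8, 2928273 to 2929455, minus strand), a pleckstrin-homology protein that limits placental growth, had 124, 135 and 151 CPM in shControl and 123, 122 and 135 CPM in shRNF20. The ranges overlapped (log2 fold change -0.11, SE 0.09, edgeR adjusted p = 0.319). Beside these members the tetraspanin CD81 (0.43) and TSSC4 (0.83) rose and the nucleosome assembly protein NAP1L4 fell (-0.41). The imprinted non-coding RNA KCNQ1OT1, which lies within the span of KCNQ1 on the opposite strand, had a log2 fold change of -0.23 and did not pass.

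Per kb of exon the order of the members in shControl was PHLDA2 (143 ± 14.3 CPM per kb), PEG10 (31.1 ± 2.64), BLCAP (10.9 ± 0.53), CDKN1C (3.83 ± 1.72), MEST (3.70 ± 0.78), SGCE (3.05 ± 0.26), NNAT (0.94 ± 0.29) and IGF2 (0.35 ± 0.20). CDKN1C, MEST and SGCE did not differ beyond their spread. In shRNF20 the order was PHLDA2 (133 ± 7.36), BLCAP (14.0 ± 0.33), NNAT (12.5 ± 1.26), PEG10 (6.42 ± 0.38), CDKN1C (4.30 ± 0.21), SGCE (3.62 ± 0.04), MEST (1.93 ± 0.14) and IGF2 (0.53 ± 0.04). There BLCAP and NNAT overlapped, and NNAT had moved above PEG10. Lengths are unions over transcripts and make the level of SGCE, with 20884 exon bases, a low estimate.

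Beyond the members, cluster neighbours and imprinted genes elsewhere in the genome gave 35 tested genes, of which 11 were higher and 11 lower, with a median log2 fold change of -0.06. The share that passed, 62.9%, was again near the 58.4% of all genes. Among the imprinted genes listed outside these clusters, 7 of 21 rose. The chromatin reader L3MBTL1 went from 3.88 ± 0.86 to 10.1 ± 1.21 CPM (1.38), and the intronless NAP1L5 from 5.59 to 12.5 CPM (1.17). The zinc finger gene ZNF331 (0.83), the acetyltransferase NAA60 (0.57), NLRP2 (0.55) and the ubiquitin ligase UBE3A (0.33) were the other named rises.

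Imprinted genes that fell numbered 6 of 21, where 29.8% of all tested genes were lower. TRAPPC9, a vesicle tethering subunit, went from 30.6 ± 9.38 to 6.05 ± 1.12 CPM (-2.34), and ZDBF2 from 26.2 to 11.7 CPM (-1.16). GRB10, an adaptor that restrains insulin and IGF signalling, fell by 0.57 on the log2 scale, GET1 by 0.44 and the retinoblastoma gene RB1 by 0.31. WT1 was called lower (-2.54), but shControl replicate 1 stood at 20.8 CPM and the other controls at 3.28 and 3.15 CPM. Without that library its log2 fold change was -1.05. WT1 did not pass without shRNF20 replicate 2 (-2.49) or 3 (-2.38), RB1 without any of the shRNF20 libraries (-0.33 to -0.32), and GET1 without shRNF20 replicate 1 (-0.46) or 2 (-0.41). Another 28 of this list were not tested. GPR1 was not found in the count tables by its symbol, and the others, among them DLK1, MEG3 and NDN, had too few counts.

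**Figure D4:**
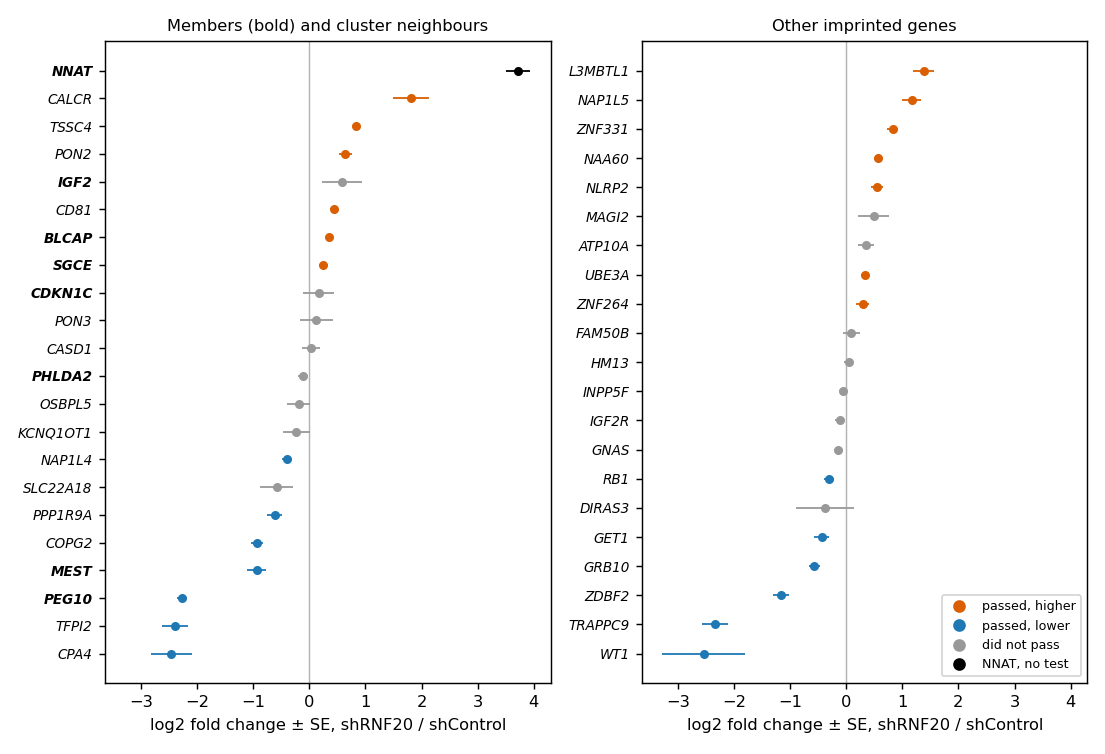
Log2 fold change with SE (shRNF20 over shControl) of every tested member (bold) and cluster neighbour on the left and of other imprinted genes on the right. Orange passed as higher, blue as lower, grey did not pass, and NNAT is in black without a test. NNAT at 3.72 is the highest and CPA4 (-2.46) and WT1 (-2.54) are the lowest of each panel, with values of both signs between.

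Factors that keep or erase the methylation of imprinted regions more often rose than fell: 12 of 23 tested were higher and 3 lower, with a median log2 fold change of 0.27. The share that passed, 65.2%, was near the 58.4% of all genes, of which 28.7% were higher and 29.8% lower. The demethylating dioxygenases TET1 (1.58), TET2 (1.07) and TET3 (0.67) all rose, TET2 from 25.1 ± 3.24 to 52.7 ± 1.47 CPM. The histone methyltransferase EHMT2 (0.84), the insulator protein CTCF (0.55) and ZNF445 (0.68), a zinc finger protein that binds methylated imprinted regions, rose too. The histone chaperone DAXX (-0.92), the helicase HELLS (-0.78) and UHRF1 (-0.68), which brings DNMT1 to replicated DNA, fell. UHRF1 did not pass in 6 of 15 alternatives, among them leaving out shControl replicate 3 or any shRNF20 library (-0.73 to -0.65). DNMT1 itself (-0.22, adjusted p = 0.137), DNMT3A (0.19, adjusted p = 0.414) and TRIM28 (-0.12, adjusted p = 0.239) did not pass by edgeR. The methyltransferases DNMT3B (0.54, edgeR adjusted p = 0.0133) and SETDB1 (0.30, edgeR adjusted p = 0.0394) passed as higher. DNMT3B did not pass in 2 of the 15 alternatives and SETDB1 in 7. All these genes are named here after their values were seen. Leaving out shRNF20 replicate 2 cut the factors that rose to 7 of 23. Over all genes 46.7% passed in that fit, with 3654 of 16363 higher.

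Partners of the members moved as follows, beside 58.4% of all tested genes that passed (28.7% higher and 29.8% lower). Neuronatin acts on the calcium pump of the endoplasmic reticulum, and of 13 tested pump and calcium store genes 4 rose and 5 fell, with ITPR2 (-1.82) and ITPR3 (-1.04), the IP3 receptors, ORAI1 (-0.76) and STIM1 (-0.41) lower and ATP2A1 (1.18), STIM2 (0.58), CALM2 (0.57) and CALM3 (0.29) higher. The pump ATP2A3, at 0.78 and 0.28 CPM below the level set for named genes, was the other fall (-1.44). The median was -0.11, and 69.2% passed. Of other genes derived from retrotransposon Gag sequences, MOAP1 (0.54), PNMA8A (0.58) and RTL10 (0.50) rose and CCDC8 (-0.92) and PNMA2 (-0.63) fell. With PEG10 that is 3 of 14 higher and 3 lower (42.9% passed), with a median of 0.13.

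Of the complex that holds epsilon-sarcoglycan, 1 of 9 tested genes rose, DTNA (0.78), and 5 fell: SSPN (-2.10), UTRN (-0.96), DTNB (-0.52), SNTB2 (-0.44) and, below the level set for named genes, dystrophin itself, DMD (-2.43, from 1.14 to 0.21 CPM). The median was -0.44, and 66.7% passed, against 58.4% of all tested genes. DTNB did not pass without shRNF20 replicate 2 (-0.51) or 3 (-0.44). In the IGF axis 6 of 13 genes fell and 1 rose, IRS2 (0.32), with a median of -0.40. In all 53.85% passed, against 58.4% of all tested genes (28.7% higher, 29.8% lower). The binding proteins IGFBP1 (-2.58), IGFBP3 (-2.37), IGFBP6 (-2.10) and IGFBP4 (-1.61), which hold IGF2 outside the cell, were the largest falls. IRS2 did not pass without shControl replicate 3 or shRNF20 replicate 2 or 3 (0.29 to 0.30). The receptors IGF2R (-0.11) and IGF1R (-0.10) did not pass.

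For p57, 5 of 13 related cell cycle genes rose and 3 fell (61.5% passed, against 58.4% of all tested genes). The sister inhibitors went opposite ways: CDKN1B rose (0.91) and CDKN1A fell from 101 to 38.7 CPM (-1.38). SKP2, which targets these inhibitors for degradation, rose (1.06), as did CCNE2 (0.65) and CCND1 (0.52), while CCNE1 (-1.20) and CDK2 (-0.40) fell. CCNE2 did not pass without any 1 of the shRNF20 libraries (0.60 to 0.66). Of the relatives of PHLDA2, PHLDA1 fell (-0.82) and PHLDA3 (-0.35, edgeR adjusted p = 0.0543) did not pass.

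Markers of cells that normally express these genes were checked beside them. Of all tested genes 58.4% passed, with 28.7% higher and 29.8% lower. Of 20 neuronal and endocrine markers 8 were tested, of which 62.5% passed: ELAVL3 (2.61), TUBB3 (1.97) and SNAP25 (0.68) rose and MAP2 (-2.39) and SYT1 (-0.73) fell. SNAP25 passed with 1 library left out only for shControl replicate 2 (0.47 to 0.74 without the others), and SYT1 did not pass without shControl replicate 3 or shRNF20 replicate 1 or 2 (-0.72 to -0.50). STMN2, NEFL, ELAVL4, INSM1 and NEUROD1 had 0 reads in every library. Their summed level was 307 to 489 CPM in shControl and 306 to 333 CPM in shRNF20, so the shRNF20 sums lay at the low end of the controls while NNAT was higher. ENO2, at 384 and 306 CPM in the group means, made up most of these sums. Trophoblast markers, beside PEG10 and PHLDA2, summed to 527 to 685 CPM in shControl and 398 to 404 CPM in shRNF20. Of the 7 tested 5 were lower, among them TFAP2C (-2.91), PSG1 (-2.05), KRT7 (-0.64) and GATA2 (-0.47), and none higher. That is 71.4% passing, against 58.4% of all tested genes. TFAP2C was at -1.53 without shControl replicate 1 and did not pass without shRNF20 replicate 3 (-2.71). CGA, CGB3, CSH1, GCM1 and ELF5 had 0 reads in every library. The part of these genes in the fall of PEG10 was not tested.

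Stromal and blood markers summed to 39.0 to 46.1 CPM in shControl and 68.6 to 73.0 CPM in shRNF20. Of 11 tested 5 were higher, among them LUM (2.93) and PDGFRB (1.98), and LCP1 (-3.37), PECAM1 (-2.95) and ACTA2 (-2.53) were lower. Of these markers 72.7% passed, against 58.4% of all tested genes. Their part in the differences of the members was not tested. For the line itself the mesenchymal markers VIM and CD44 were abundant (638 and 822 CPM in shControl). Both were called lower in shRNF20, with log2 fold changes of -0.48 to -0.37 and -1.34 to -1.12 over the 15 alternatives. Of 16 genes listed for the line 14 were tested, of which 4 were higher and 7 lower. That is 78.6% passing, against 58.4% of all tested genes. CDKN2A had 0 reads, and the progesterone receptor PGR was at or below 0.213 CPM throughout. The oestrogen receptor ESR1 was at 0.10, 0.20 and 0 CPM in the controls, and the shRNF20 libraries had 1.27, 1.68 and 1.37 CPM (log2 fold change 3.76, or 4.54 without shControl replicate 2).

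Gene counts totalled 21988826 to 29685306 per library. The replicates of shRNF20 were closer to each other than those of shControl: the median SD of log2-CPM over genes was 0.09 against 0.21. Between shRNF20 libraries the mean chi-square per gene was 2.06 to 6.80, where sampling noise alone gives about 1, and between shControl libraries it was 31.9 to 51.5. The shRNF20 libraries thus differed by more than sampling noise and were counted as 3 samples, but libraries made from 1 culture could differ by this much as well. With them summed to 1 sample, PEG10 fell with an adjusted p of 0.00316 by edgeR and ENSG00000276603 rose with one of 0.00603, while BLCAP, SGCE and MEST did not pass.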

How the data were processed

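The authors deposited raw read counts per gene, without strand and for each strand, for 62703 Ensembl genes in each of 6 libraries. Per the submitters' processing notes, reads were checked with FastQC 0.12.1 and aligned with STAR 2.7.11a to hg38. The release of the annotation, trimming and enrichment were not given in the sources used here. Reads fell on both strands alike (50.1% to 50.16% on 1 of them), so counts without strand were used. Reads shared by exons of different genes are recorded as ambiguous (10.74% to 11.15% of all reads), and lines that name no gene (20.94% to 24.12%) were left out. Identifiers gave a symbol for 62686 genes, and positions were read from GENCODE 29 (same assembly), in which 58264 of them occur.

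Counts were fitted in R 4.3.3 with edgeR 4.0.16: filterByExpr (minimum count 10), TMM, robust quasi-likelihood F-test, Benjamini-Hochberg adjustment over all tested genes and a threshold of 0.05. The SE of a log2 fold change is its size divided by the root of F, and log2-CPM used a prior count of 2. Limits for a count of 0 cover counting error only.

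The members and all lists were chosen with earlier results of these data known. Named genes are the members, RNF20, every passing cluster neighbour, imprinted gene and maintenance factor (at most 6 in each direction by fold change, and mean log2-CPM no lower than 0 where more passed), at most 4 in each direction of the other lists by the same order, genes near NNAT, and the 5 genes most like NNAT. Genes with a clone name, a LINC symbol or only an Ensembl identifier were left out when the genes most like NNAT were ranked. Same-numbered libraries did not deviate together (correlations -0.016, 0.035 and 0.028, with 0.1 as the limit), so libraries were not paired. Alternatives were DESeq2 1.42.0, scaling by RLE or upper quartile, no filter, CPM of at least 1 in 3 libraries, the replicate block, summed strand columns, no mitochondrial genes, shRNF20 libraries summed to 1 sample, and each library left out.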

Additional observations from a re-analysis of the deposited data

How the results depend on the processing

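Over 15 alternatives NNAT, PEG10 and the sense intronic gene ENSG00000276603 kept their direction, and the log2 fold changes of PEG10 and ENSG00000276603 stayed past the threshold. CDKN1C changed sign without shControl replicate 3 (-0.073) and ranged from -0.073 to 0.559 over the libraries left out. With the shRNF20 libraries summed to 1 sample fewer genes passed (3372 of 17440 in all, against 9232 of 15797): 1 member higher and 1 lower, 2 cluster neighbours higher and 3 lower, 4 other imprinted genes higher and 2 lower, 4 maintenance factors higher and 1 lower, and 32 sense intronic genes higher and 0 lower. Leaving out 1 library gave 2 to 5 members higher (5 without shControl replicate 2) and 3 to 7 other imprinted genes lower. Of the maintenance factors 7 to 13 were then higher and 2 to 5 lower. Over all tested genes 46.1% to 46.7% passed without 1 shRNF20 library and 55.1% to 59.9% without 1 shControl library, against 58.4% in the main fit. Counts of sense intronic genes and values of ENSG00000276603 were added after seeing the data. With no filter on low counts 85 of 541 tested sense intronic genes were higher, and 4845 of 32933 genes in all. With a CPM of at least 1 in 3 libraries 29 of 52 were higher and 3 lower, against 56 and 7 of 120 in the main fit. Of all genes 4128 of 13612 were higher with that filter and 4528 of 15797 in the main fit. With the replicate block 8936 of 15797 genes passed, NNAT was at 3.74, and 3 members were higher and 2 lower; the block changed no call of a member. No scaling moved the median of all genes by over 0.1. NNAT in shControl rests on 24 to 43 reads per library, and the SE of a member's log2 fold change was largest for IGF2 (0.36) and CDKN1C (0.27).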
